A study of Mus musculus with 8 samples.

Results

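Polycomb repressive complex 1 (PRC1) is built from a small set of interchangeable subunits, and the mRNA levels of 10 genes that encode them were followed here. The genes were *Rnf2*, *Ring1*, *Pcgf1*, *Pcgf2*, *Pcgf3*, *Pcgf5*, *Pcgf6*, *Kdm2b*, *Rybp* and *Cbx7*. They were taken by symbol from the 50902 genes of the deposited expression table, each with 1 entry on a main chromosome, and all 10 were measured in all 8 libraries. RNA-seq was performed on E14 mouse embryonic stem cells (ESCs) grown without serum in N2B27 medium with LIF/2i. Both groups carried a PiggyBac insertion of a BAZ2A transgene that bears Flag and HA tags and escapes the siRNA, and both received siRNA against the endogenous *Baz2a*, with RNA collected 3 days later. In 4 libraries (ESC + F/H-BAZ2Ar WT, below WT) the transgene encoded wild-type BAZ2A, and in 4 (ESC + F/H-BAZ2Ar ΔTAM, below ΔTAM) it encoded BAZ2A without the TAM domain, which binds RNA. The comparison asks whether gene regulation by BAZ2A needs the nuclear bodies that form through this domain. Transgenic cells were selected as single-cell clones, so a difference between clones cannot be told apart from the effect of the deletion. No untransfected cells or cells without a transgene were analysed here.

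All PRC1 complexes share an E3 ligase core, RNF2 (RING1B) or RING1 (RING1A) bound to a PCGF protein, which places ubiquitin on a lysine of histone H2A (H2AK119ub). Canonical PRC1 holds PCGF2 or BMI1 with a PHC and a CBX protein, and its CBX subunit reads the H3K27me3 mark left by PRC2. Variant PRC1 holds RYBP or YAF2 in place of CBX and is formed around any of the PCGF proteins, and the variant complex of PCGF1 is brought to CpG islands by KDM2B, whose CXXC domain binds unmethylated CpG. In ESCs the variant complexes lay down most H2AK119ub, and canonical PRC1 compacts H3K27me3 domains.

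*Pcgf1*, *Kdm2b* and *Pcgf3*, which all belong to variant PRC1, were higher in ΔTAM than in WT. *Pcgf1* was 33.8% and *Kdm2b* 29.0% above the WT mean, while the *Pcgf3* difference was 8.13% and its call was lost in 7 of 8 fits without 1 library and under other settings given below. The catalytic subunits *Rnf2* and *Ring1*, the canonical subunits *Pcgf2* and *Cbx7*, and *Pcgf5*, *Pcgf6* and *Rybp* did not pass the test. Of the 10 genes, 3 were called higher and 0 lower with limma at a Benjamini-Hochberg adjusted p under 0.05, while 13.2% of the 16149 genes tested were called higher and 11.9% lower. The median log2 fold change of the 10 genes was 0.023, against 0.0040 for all genes tested. At an unadjusted p under 0.05, 4 of the 10 were past the threshold, *Cbx7* being the other one, against 36.9% of all genes tested. The thresholds used by the study (log2 fold change of 0.58 or more in either direction and p under 0.05) were applied to the limma values. They were not applied to the study's own test. Under them, 0 of the 10 genes passed, while 8.42% of all genes tested did. The 4 WT and 4 ΔTAM values did not overlap for 3 genes that were higher and 1 that was lower (*Cbx7*) in ΔTAM, while 15.2% of all genes tested were higher and 14.4% lower without overlap.

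Libraries held between 6.59 M and 8.70 M reads on genes, with 2126 genes called higher and 1925 lower in ΔTAM. These reads were 14.9% to 15.0% of the library total that the RPKM scale implies, and the reason for this share was not tested. *Baz2a* mRNA, to which endogenous and transgene transcripts can both contribute in this table, was 10.5 ± 0.529 RPKM (SD, n = 4) in WT and 18.3 ± 0.824 RPKM (n = 4) in ΔTAM. ESC markers were present, with *Pou5f1* at 18.5 RPKM in WT and 17.7 in ΔTAM, but moved with the comparison. Of the 10, 6 (*Sox2*, *Esrrb*, *Klf4*, *Tbx3*, *Dppa5a*, *Utf1*) were called lower in ΔTAM and 0 higher, though *Dppa5a* lost its call with no filter on low genes (adjusted p = 0.0868). The summed RPKM of the 10 markers ranged from 370 to 380 in WT and from 299 to 326 in ΔTAM, and most of it was *Dppa5a*, without which the other 9 summed to 90.4 to 93.3 and 76.1 to 81.8. *Pou5f1* and *Nanog* were not called, though *Pou5f1* was lower with quantile normalization (adjusted p = 0.0264). Summed RPKM of the 6 fibroblast markers stayed between 0.0112 and 0.0187 in WT and between 0.0102 and 0.0332 in ΔTAM, with *Col3a1* and *Lum* at 0 throughout. Sums of the 6 primitive endoderm markers were 0.0183 to 0.0441 and 0.0354 to 0.0596. The 6 trophoblast markers summed to 1.34 to 1.38 and 1.39 to 1.70 (by limma *Tfap2c* higher and *Eomes* lower, by voom also *Cdx2* higher), the 6 neural markers to 0.704 to 0.828 and 0.457 to 0.542 (*Sox1* and *Nes* lower), and the 6 mesoderm markers to 0.748 to 0.825 and 0.599 to 0.779, with 0 of the 3 tested called by limma and *Kdr* higher by voom. These RPKM divide by the whole span of a gene, so the sums weigh short genes more and cannot be compared between lists. The part of these markers, and of the *Baz2a* level, in the PRC1 results was not tested. In bulk RNA, fewer cells that express a gene and less RNA per cell cannot be told apart.

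*Kdm2b* is shown with its promoters because its protein binds CpG dinucleotides and because the gene has alternative start regions, the internal one giving a shorter protein without the demethylase domain. The upstream region (promoter 1 below) and an internal one (promoter 2) both lie inside the span over which the gene was counted, so its single value does not separate the transcripts. *Pcgf3* is shown beside it as the other gene that was called higher for which RefSeq promoter windows were given. Each sequence gives the 250 bases before a transcription start, 5′ to 3′ on the gene's strand, from RefSeq (GRCm38.p6, the same build as mm10), with every CpG in capitals. For each start region the window with the most CpG is shown, minus strand chr5:122989100-122989349 and chr5:122900351-122900600 for *Kdm2b* and plus strand chr5:108461009-108461258 for *Pcgf3*.
Kdm2b promoter 1: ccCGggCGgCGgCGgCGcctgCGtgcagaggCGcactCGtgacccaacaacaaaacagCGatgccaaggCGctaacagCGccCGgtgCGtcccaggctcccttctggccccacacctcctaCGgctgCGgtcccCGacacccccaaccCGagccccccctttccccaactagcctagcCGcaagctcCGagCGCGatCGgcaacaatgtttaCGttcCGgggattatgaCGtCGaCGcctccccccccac
Kdm2b promoter 2: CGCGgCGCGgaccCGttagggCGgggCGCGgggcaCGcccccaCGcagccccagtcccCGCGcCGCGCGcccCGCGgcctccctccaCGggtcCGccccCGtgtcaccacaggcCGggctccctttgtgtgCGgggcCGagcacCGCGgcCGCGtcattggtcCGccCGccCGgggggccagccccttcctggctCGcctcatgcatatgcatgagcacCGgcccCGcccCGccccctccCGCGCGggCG
Pcgf3 promoter: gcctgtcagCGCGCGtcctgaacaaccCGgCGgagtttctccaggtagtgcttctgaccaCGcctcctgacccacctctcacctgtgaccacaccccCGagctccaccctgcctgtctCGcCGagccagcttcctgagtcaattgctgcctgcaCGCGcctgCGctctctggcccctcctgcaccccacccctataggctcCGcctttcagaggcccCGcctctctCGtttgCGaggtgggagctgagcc

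*Kdm2b* promoter 1 held 27 CpG, and 8.56% of the 32851 promoter windows of the same length held as many or more. A further window of this upstream region (chr5:122988508-122988757) held 12, reached by 33.5%. *Kdm2b* promoter 2 held 38 CpG, reached by 1.88% of windows, and a further window of the internal region held 36, reached by 2.58%. The *Pcgf3* window held 16, reached by 25.4%. The *Kdm2b* windows shown were picked for the most CpG in their start region, unlike the 32851 windows. The median over all windows was 6 CpG. Windows were given for 8 of the 10 genes (13 windows, with 4 to 38 CpG each), and 11 of the 13 held at least the median number. *Kdm2b* and *Pcgf5* gave several windows each, and those of the internal *Kdm2b* region overlapped, so the count is of windows and not of genes.

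*Pcgf1* encodes the PCGF protein that assembles with KDM2B and BCOR, and it showed the largest difference of the 10 genes. The gene (chr6:83077869-83080855, mm10) was at 1.27, 1.16, 1.28 and 1.36 RPKM in WT replicates 1 to 4 and at 1.59, 1.82, 1.60 and 1.76 RPKM in ΔTAM. Every ΔTAM library lay above every WT library, and ΔTAM replicate 2 was the highest. Its log2 fold change was 0.42 ± 0.062 (SE; 95% confidence interval 0.27 to 0.56; limma, adjusted p = 0.00279). The values rested on 179 to 306 reads per library. *Pcgf1* stayed called in all 8 fits that left out 1 library (log2 fold change 0.38 to 0.45) and under each of the 12 other settings (adjusted p = 1.55e-04 to 0.0221). With a pseudocount of 1 RPKM, which compresses low values, its log2 fold change was 0.25.

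*Kdm2b* encodes the histone demethylase that carries the PCGF1 complex to CpG islands. Its RPKM (chr5:122870665-122989823) was 0.0856, 0.0852, 0.0839 and 0.0719 in WT and 0.113, 0.104, 0.101 and 0.103 in ΔTAM. The groups did not overlap, and WT replicate 4 stood below the other WT libraries. The log2 fold change was 0.33 ± 0.067 (SE; 95% confidence interval 0.18 to 0.49; limma, adjusted p = 0.0103), from 442 to 714 reads per library. Without WT replicate 4 it was 0.28 (adjusted p = 0.0137). Because the table divides by the whole span of the gene, RPKM of *Kdm2b* are low, and pseudocounts of 0.1 and 1 RPKM gave log2 fold changes of 0.18 and 0.031, both still called. The 3′ end of *Kdm2b* overlaps *Rnf34* on the opposite strand, with 627 of the 10869 merged exon bases of *Kdm2b* shared. *Rnf34* itself was higher in ΔTAM, with a log2 fold change of 0.33 ± 0.076 (SE; limma, adjusted p = 0.0180). Whether the counting used strand is not given in the sources used here, and the part of shared reads was not tested.

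*Pcgf3* encodes the PCGF protein of a variant PRC1 that also holds AUTS2 or FBRS and casein kinase 2. It was at 0.274, 0.276, 0.270 and 0.273 RPKM in WT and at 0.288, 0.305, 0.294 and 0.295 RPKM in ΔTAM (chr5:108461232-108506976). The WT libraries were nearly equal, and each ΔTAM library lay above them. The log2 fold change was 0.11 ± 0.030 (SE; 95% confidence interval 0.038 to 0.18; limma, adjusted p = 0.0359), from 595 to 785 reads per library. This call depended on the processing. It was lost with quantile normalization (adjusted p = 0.0914), with a variance prior without a trend (0.0531) and when any 1 library other than ΔTAM replicate 1 was left out (up to 0.0855), and with a pseudocount of 1 RPKM its log2 fold change was 0.025.

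**Figure D1:**
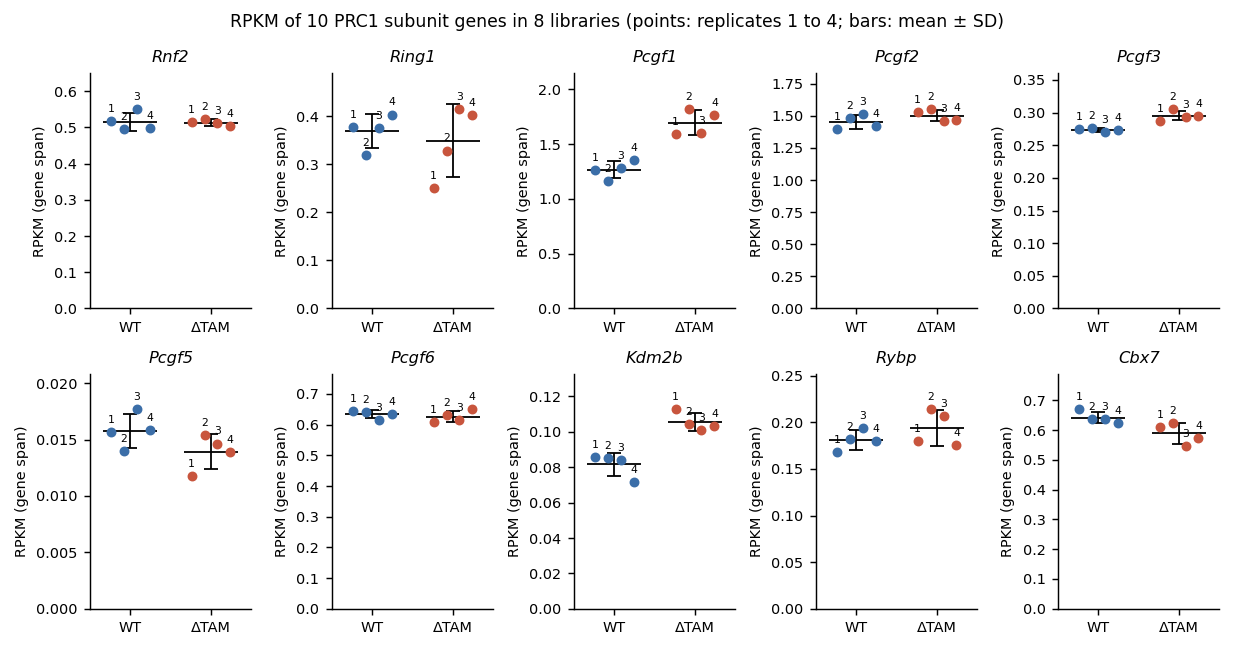
RPKM per gene span (y axis, from 0) of the 10 PRC1 subunit genes in WT and ΔTAM, 1 panel per gene. Points are libraries, numbered by replicate, and bars give the mean ± SD of 4. *Pcgf1*, *Kdm2b* and *Pcgf3* have all ΔTAM points above all WT points, *Cbx7* has them all below, and *Ring1* spreads from 0.250 to 0.415 RPKM within ΔTAM.

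The catalytic subunits gave no difference that passed the test. *Rnf2*, the main E3 ligase of PRC1 in ESCs, was at 0.517, 0.495, 0.551 and 0.499 RPKM in WT and at 0.516, 0.523, 0.513 and 0.503 RPKM in ΔTAM (chr1:151458004-151500955). The ΔTAM values lay inside the WT range. The log2 fold change was -0.0035 ± 0.039 (SE; limma, adjusted p = 0.967), and the 95% interval of the ratio of ΔTAM to WT, taken on RPKM + 0.01 here and below, ran from 0.936 to 1.06. Its sign was positive when WT replicate 3 or ΔTAM replicate 4 was left out. *Rnf2* shares 158 exon bases with *Trmt1l* on the opposite strand, whose log2 fold change was 0.013.

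*Ring1*, the paralog of *Rnf2*, was measured with less precision. It was at 0.378, 0.320, 0.375 and 0.404 RPKM in WT and at 0.250, 0.329, 0.415 and 0.403 RPKM in ΔTAM (chr17:34020792-34024680), from 44 to 91 reads per library. ΔTAM replicate 1 was the lowest of all libraries and ΔTAM replicate 3 the highest. The log2 fold change was -0.10 ± 0.16 (SE; limma, adjusted p = 0.700) with a 95% interval of the ratio from 0.720 to 1.21, and without ΔTAM replicate 1 it was 0.047.

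Among the subunits of canonical PRC1, *Cbx7* encodes the main H3K27me3 reader of PRC1 in ESCs. It was at 0.669, 0.637, 0.637 and 0.625 RPKM in WT and at 0.612, 0.625, 0.548 and 0.573 RPKM in ΔTAM (chr15:79915807-79971119). The groups did not overlap, although ΔTAM replicate 2 (0.6248) was just below WT replicate 4 (0.6250). The log2 fold change was -0.12 ± 0.047 (SE; 95% confidence interval -0.23 to -0.012), which missed the threshold (limma, adjusted p = 0.102). It passed with quantile normalization (adjusted p = 0.0416) and with limma voom on the 1514 to 1841 reads per library (log2 fold change -0.13, adjusted p = 0.0173). By voom, 3 of the 10 genes were called higher and 1 lower, while 21.8% of the 12660 genes tested by voom were called higher and 21.8% lower. *Cbx7* shares 100 exon bases with *Apobec3* on the opposite strand, which was higher in ΔTAM (log2 fold change 0.26 ± 0.049, SE; limma, adjusted p = 0.00806).

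*Pcgf2*, which encodes the PCGF protein of canonical PRC1 also known as MEL18, was at 1.39, 1.48, 1.51 and 1.42 RPKM in WT and at 1.53, 1.55, 1.46 and 1.47 RPKM in ΔTAM (chr11:97688823-97700497). The ranges overlapped, though each ΔTAM library was above the WT mean. Its log2 fold change was 0.050 ± 0.036 (SE; limma, adjusted p = 0.362), and the 95% interval of the ratio was 0.977 to 1.10.

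The remaining variant subunits did not pass the test either. *Pcgf6*, the PCGF protein of the complex with MGA and L3MBTL2, ranged from 0.616 to 0.646 RPKM in WT and from 0.610 to 0.650 in ΔTAM (chr19:47033619-47050845), with a ratio interval of 0.940 to 1.04 (limma, adjusted p = 0.723). *Rybp*, which replaces CBX in variant PRC1 and stimulates the ligase, was at 0.168, 0.182, 0.194 and 0.180 RPKM in WT and at 0.179, 0.214, 0.206 and 0.176 RPKM in ΔTAM (chr6:100228565-100287485). Replicates 2 and 3 of ΔTAM were above all WT libraries and replicates 1 and 4 were not, and the ratio interval was 0.942 to 1.20 (limma, adjusted p = 0.448). The pseudogene *Rybp-ps* had at most 1 read in any library. *Pcgf5*, whose protein forms complexes like those of PCGF3, was at 0.0157, 0.0140, 0.0177 and 0.0158 RPKM in WT and at 0.0118, 0.0154, 0.0147 and 0.0139 RPKM in ΔTAM (chr19:36348309-36460970), from 60 to 97 reads per library. All 4 ΔTAM values were below the WT mean but the groups overlapped, and the ratio interval ran from 0.746 to 1.15 (limma, adjusted p = 0.603). The pseudocount is close to the level of *Pcgf5* and compresses its difference, and on recovered reads voom gave a log2 fold change of -0.17 ± 0.12 (SE; adjusted p = 0.258). For *Rnf2*, *Pcgf2*, *Pcgf6* and *Rybp* the intervals did not reach the difference measured for *Pcgf1* in either direction, and for *Ring1* and *Pcgf5* only a decrease of that size lay inside the interval.

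**Figure D2:**
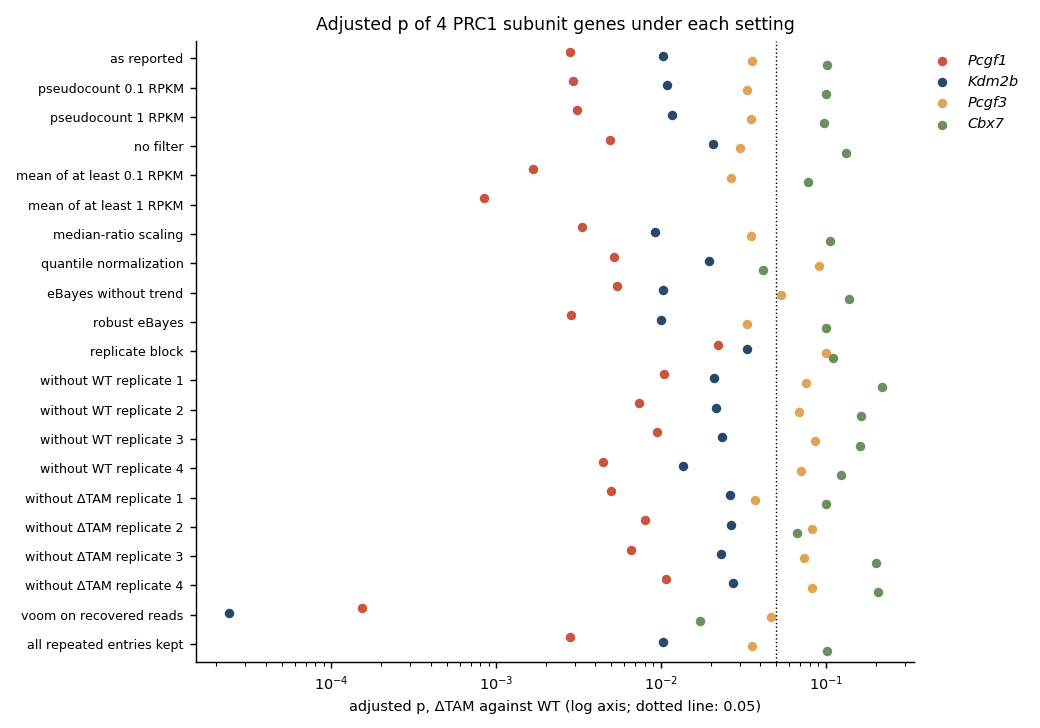
Benjamini-Hochberg adjusted p (x axis, log scale) of *Pcgf1*, *Kdm2b*, *Pcgf3* and *Cbx7* in the reported fit and under each other setting (y axis, 1 row per setting), with a dotted line at 0.05. *Pcgf1* and *Kdm2b* stay left of the line wherever they were tested, *Pcgf3* crosses it, and *Cbx7* is left of it only with quantile normalization and voom.

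The deposited RPKM divide by the whole span of a gene, introns included, so they cannot be compared between genes. Levels were therefore recomputed per merged exon length (GENCODE vM21), which ranged over the 10 genes from 1649 bases for *Pcgf1* to 12629 for *Pcgf5*. On this scale the WT order began with *Cbx7* at 5.47 ± 0.163 RPKM (SD, n = 4), *Rnf2* at 5.36 ± 0.266 and *Pcgf2* at 4.81 ± 0.177. *Cbx7* and *Rnf2* overlapped, while *Rnf2* and *Pcgf2* did not. A middle group followed, in which neighbours overlapped, with *Pcgf1* at 2.29 ± 0.143, *Rybp* at 2.25 ± 0.129 and *Pcgf6* at 2.17 ± 0.0447. Each of the other genes stood apart from its neighbours, *Pcgf3* at 1.31 ± 0.0117, *Kdm2b* at 0.895 ± 0.0718, *Ring1* at 0.442 ± 0.0424 and *Pcgf5* at 0.141 ± 0.0135. In ΔTAM the order was the same except that *Rnf2* (5.35 ± 0.0878) came before *Cbx7* (5.02 ± 0.300), and *Pcgf1* was at 3.07 ± 0.207. With the length of the longest protein-coding transcript in place of merged exons, the WT means were 10.5 for *Cbx7*, 6.91 for *Rnf2* and 6.82 for *Pcgf2*. *Pcgf6* then moved to rank 4 and *Kdm2b* to rank 7 in WT, ahead of *Pcgf3*. These distances and positions thus depended on the transcript model.

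**Figure D3:**
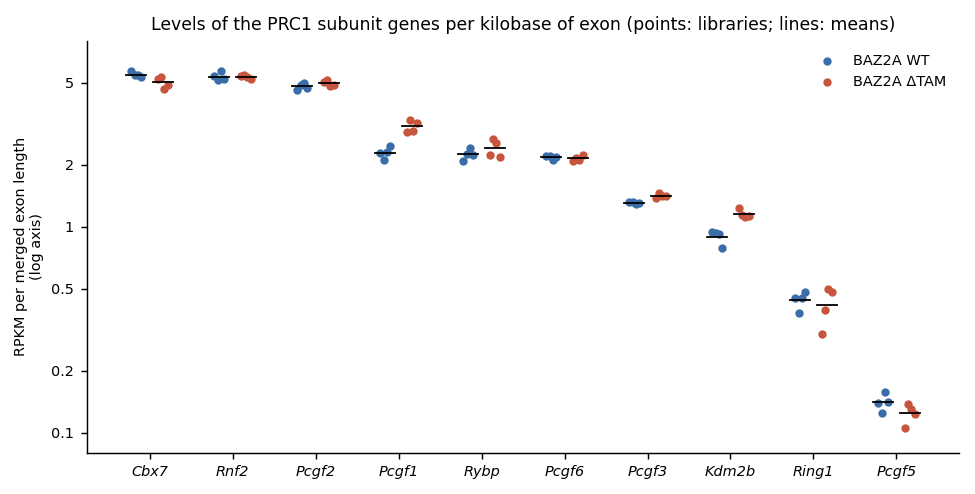
RPKM per merged exon length (y axis, log scale) of the 10 genes, ordered by their WT mean. Points are libraries and lines are group means of 4. *Cbx7*, *Rnf2* and *Pcgf2* sit near 5, and *Pcgf5* is the lowest at 0.141 in WT.

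The paralogs were unequal. *Rnf2* made up 92.4 ± 0.695% of the summed exon-length level of *Rnf2* and *Ring1* in WT and 92.7 ± 1.54% in ΔTAM (SD, n = 4 each), with overlapping groups. Per gene span this share would be 58.3% in WT, because *Ring1* has few intronic bases. Among the Pcgf genes, with *Bmi1* (*Pcgf4*) added, *Pcgf2* had the highest share, 41.9 ± 1.22% in WT and 40.0 ± 0.947% in ΔTAM, with overlapping ranges. The share of *Pcgf1* was 20.0 ± 1.22% in WT (18.4 to 21.4%) and 24.6 ± 1.10% in ΔTAM (23.5 to 25.6%), without overlap. *Pcgf6* had 18.9 ± 0.571% and 17.3 ± 0.458%, and *Pcgf5* 1.23 ± 0.111% and 0.998 ± 0.102%, both without overlap. *Pcgf3* (11.4% in both groups) and *Bmi1* (6.54% and 5.76%) overlapped. Shares sum to 100% in each library, so a higher *Pcgf1* lowers the shares of the others, and they were not tested.

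**Figure D4:**
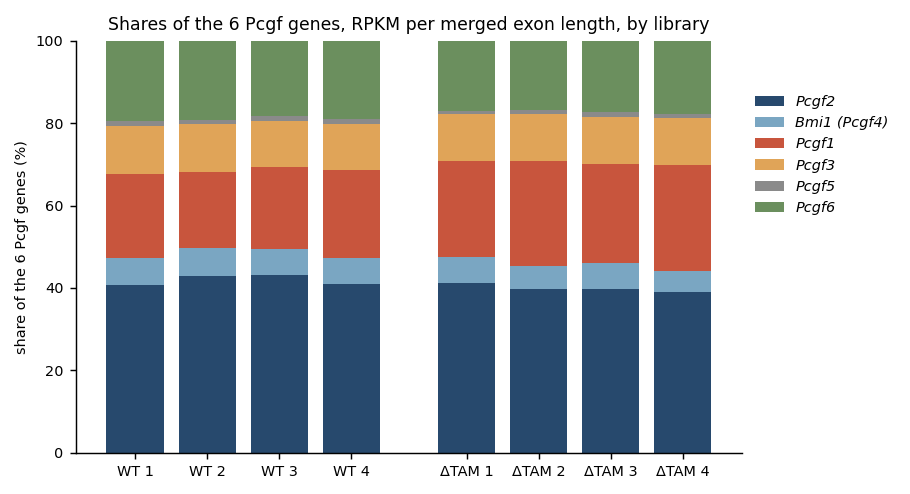
Share (y axis, percent, from 0) of each of the 6 Pcgf genes in their summed RPKM per merged exon length, 1 bar per library. The *Pcgf1* section is wider in every ΔTAM library (23.5 to 25.6%) than in any WT library (18.4 to 21.4%).

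The partners of these subunits were described from lists of the other canonical and variant PRC1 genes. Of the 9 other canonical genes, 8 were tested, 1 was called higher (*Cbx6*) and 1 lower (*Phc1*), with a median log2 fold change of -0.083. These counts are near the shares over all genes (13.2% higher, 11.9% lower) and are no result about the list. *Phc1*, a polyhomeotic subunit that lets canonical PRC1 polymerize, was at 2.81, 2.77, 2.76 and 2.74 RPKM in WT and at 2.17, 2.20, 2.15 and 2.20 RPKM in ΔTAM. The groups were well apart, and the log2 fold change was -0.34 ± 0.019 (SE; limma, adjusted p = 5.86e-05). The gene was called under all 12 other settings, with values of -0.38 to -0.24. *Cbx6*, an alternative CBX subunit, had a log2 fold change of 0.25 ± 0.035 (SE; limma, adjusted p = 0.00211). *Cbx8* had the largest fitted value, 0.66 ± 0.21 (SE), but from only 8 to 18 reads per library in WT and 18 to 24 in ΔTAM. It missed the threshold (limma, adjusted p = 0.0550) and passed by voom, with pseudocounts of 0.1 and 1 RPKM and without WT replicate 4 (adjusted p range over the settings other than omission of a library 0.0261 to 0.0903). *Bmi1*, the paralog of *Pcgf2*, was not called, with a log2 fold change of -0.068 ± 0.061. *Scml2* did not pass the filter on low values, with 13 to 31 reads in WT and 10 to 12 in ΔTAM, a voom log2 fold change of -0.87 (adjusted p = 0.0145). By voom 3 of 9 canonical genes were called lower (*Phc1*, *Phc3* and *Scml2*) and 2 higher, against 21.8% of all genes in each direction.

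Of the 19 other variant genes, 18 were tested, 5 were called higher and 1 lower, beside 13.2% and 11.9% of all genes tested, with a median log2 fold change of 0.094. By voom 8 of 19 were called higher and 0 lower, beside 21.8% of all genes in each direction. Those called higher were *Bcorl1* (0.44 ± 0.069), *Max* (0.27 ± 0.056), *Skp1a* (0.26 ± 0.046), *Usp7* (0.21 ± 0.021) and *Wdr5* (0.15 ± 0.039; log2 fold change ± SE in each case). BCORL1, SKP1 and the deubiquitinase USP7 are partners of PCGF1, while MAX and WDR5 belong to the PCGF6 complex. *Bcorl1*, *Max*, *Skp1a* and *Usp7* were called under every other setting in which they were tested and in all 8 fits without 1 library, but *Wdr5* in only 3 of those 8 and not without a variance trend. A pseudocount of 1 RPKM lowered the fitted values of low genes, that of *Bcorl1* to 0.030. *E2f6*, which encodes a DNA-binding repressor found in the PCGF6 complex, was called lower (log2 fold change -0.16 ± 0.043, SE; limma, adjusted p = 0.0336), and the call was lost in 7 of 8 fits without 1 library and by voom (adjusted p = 0.0572). *Bcor*, the paralog of *Bcorl1*, had a log2 fold change of 0.0013 ± 0.061. *Auts2* did not pass the filter, and its recovered reads were 276 to 297 in WT and 372 to 439 in ΔTAM, and voom called it higher (log2 fold change 0.48, adjusted p = 1.54e-05).

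Arranged by complex, a grouping made after the values were seen and therefore not tested, by limma 5 of the 6 genes of the PCGF1 complex (*Pcgf1*, *Kdm2b*, *Bcor*, *Bcorl1*, *Skp1a*, *Usp7*) were called higher and 0 lower, with a median log2 fold change of 0.30, while 13.2% of all genes were called higher and 11.9% lower. In canonical PRC1 1 of 10 tested genes was called higher and 1 lower, with a median of -0.083. The complexes of PCGF3 and PCGF5 had 1 of 8 tested genes higher, with a median of -0.0015. *Auts2*, also of these complexes, did not pass the filter and was higher by voom (log2 fold change 0.48, adjusted p = 1.54e-05). The PCGF6 complex had 2 of 8 higher and 1 lower, with a median of 0.044. *Rnf2*, *Ring1*, *Rybp* and *Yaf2*, which several complexes share, had 0 of 4 called. By voom, canonical PRC1 had *Cbx6* and *Cbx8* higher and *Cbx7*, *Phc1*, *Phc3* and *Scml2* lower, beside 21.8% of all genes in each direction. Voom called *Pcgf3*, *Auts2* and *Fbrs* higher in the complexes of PCGF3 and PCGF5, and *L3mbtl2*, *Max* and *Wdr5* in the PCGF6 complex. In the PCGF1 complex it called the same genes as limma.

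**Figure D5:**
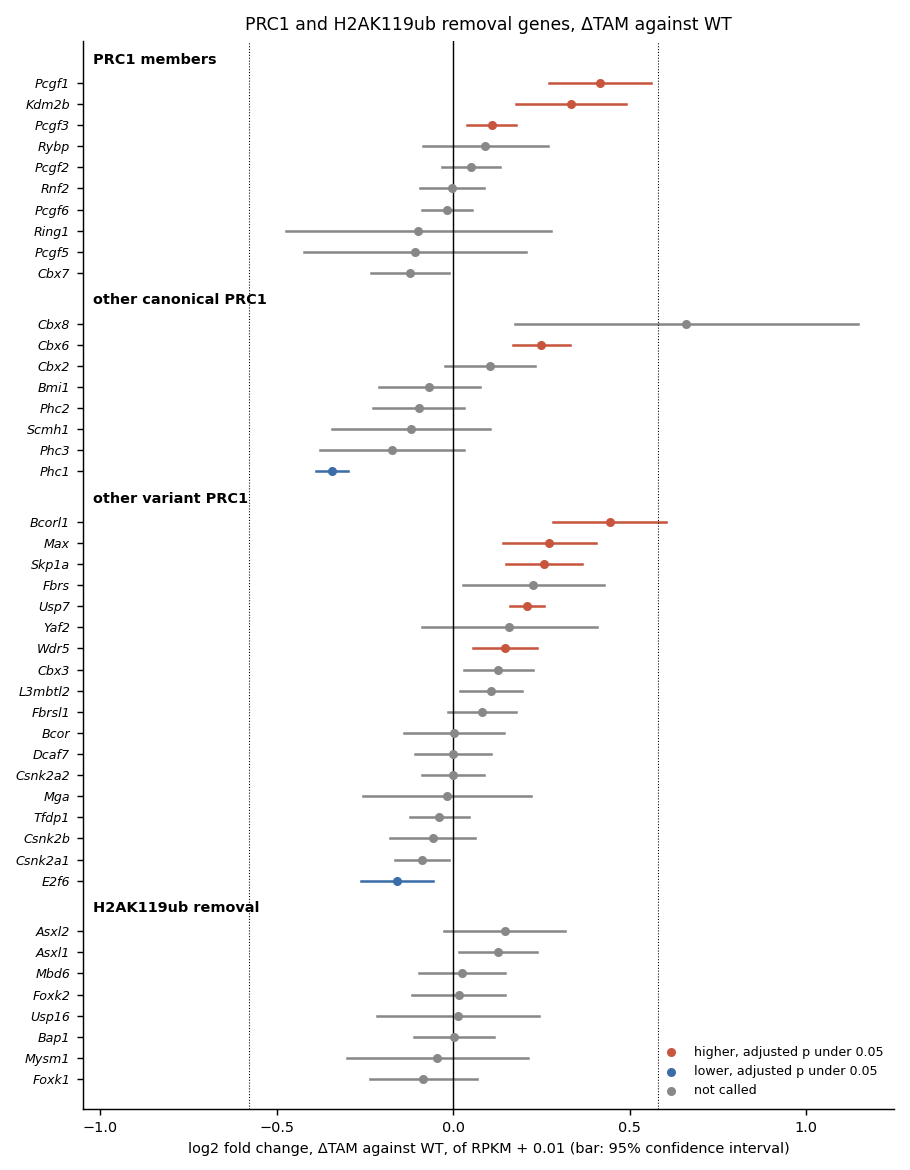
Log2 fold change of RPKM + 0.01 in ΔTAM against WT (x axis) with 95% confidence intervals for the 10 PRC1 subunit genes and the tested genes of the PRC1 partner and H2AK119ub removal lists (y axis, sorted within each list). Red marks genes called higher, blue genes called lower and grey genes not called, and dotted lines mark the study's threshold of 0.58. *Pcgf1* and *Kdm2b* head the first list. *Cbx8*, with 8 to 18 reads per library in WT and 18 to 24 in ΔTAM, is the only gene plotted whose estimate (0.66) is past a dotted line.

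Genes for the removal of H2AK119ub, the mark that PRC1 writes, were examined in the same way. The list held the deubiquitinase genes *Bap1*, *Usp16* and *Mysm1*, and partner genes (*Asxl1*, *Asxl2*, *Asxl3*, *Foxk1*, *Foxk2*, *Mbd5* and *Mbd6*). Of these 10 genes, 8 were tested and 0 were called by limma, against 13.2% of all genes higher and 11.9% lower. The log2 fold changes of the 8 were -0.084 to 0.15, with a median of 0.014. At an unadjusted p under 0.05, 1 of the 8 passed, against 36.9% of all genes, and by voom 2 of 9 (*Asxl1* and *Asxl2*) were called higher, against 21.8% of all genes. *Asxl3* and *Mbd5* did not pass the filter.

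The genes whose log2(RPKM + 0.01) was most like that of *Pcgf1* over the 8 libraries, out of the 9001 genes that averaged 0.1 RPKM or more, were *Zfand2a* (Pearson r = 0.988), *Srrm1* (r = 0.986) and *Cnot2* (r = 0.984). Their log2 fold changes were 0.33, 0.12 and 0.29. The 8 points fall into the WT and ΔTAM groups, so these values largely describe the difference between groups, and they are given with no test.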

How the data were processed

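RNA-seq was analysed for 8 libraries of E14 ESCs, 4 WT and 4 ΔTAM, grouped by their labels. RNA was polyA-selected and made into stranded TruSeq libraries. The authors removed ribosomal reads, trimmed with Trimmomatic (0.36 in the submitters' processing notes), mapped with STAR to mm10 and summarised exon coverage by gene in their own pipeline. The annotation release, whether strand was used and how multi-mapped reads were treated are not given in the sources used here. The RPKM values deposited by the authors are per genomic span: multiplied by gene length, 99.5% to 99.6% of values above 0 were whole multiples (within 0.01) of a step per library, taken as 1 read. Columns of per-sample values not used numbered 0.

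Of 51288 entries, 386 that repeat a symbol were set aside. The test was limma 3.58.1 (R 4.3.3) with a variance trend on log2(RPKM + 0.01), two-sided, for the 16149 genes that averaged 0.01 RPKM or more, with Benjamini-Hochberg adjustment over all of them and a threshold of 0.05. Fold changes are on that scale, which understates those of low genes. Labels do not say whether replicates were separate cultures, so p-values measure the spread between these samples. Between replicates of a group, recovered reads gave a chi-square of 1.37 to 3.19 per gene, above the sampling noise, and no pair of libraries was identical. On simulated data for this comparison, with a dispersion of 0.001, limma recovered 94.5% of 200 genes changed by 1 on the log2 scale among 15990 tested, with 12 false calls, and voom 100% among 12683, with 11. Smaller changes, such as those of the 10 genes, were not simulated. Only genes with higher read counts were changed and all genes had the same dispersion, so the rates in the data may be less favourable. Alternatives were pseudocounts of 0.1 and 1 RPKM, filters (none, 0.1 and 1 RPKM), median-ratio scaling, quantile normalization, no variance trend, a robust prior, a block for the replicate number, omission of each library, repeated entries kept, and limma voom on recovered reads (mean of at least 10).

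The 10 genes and all lists (other canonical PRC1, other variant PRC1, H2AK119ub removal, markers) were chosen with earlier results of these data known, and 1 gene of the canonical list is not reported here. Named genes are the 10 genes, *Baz2a*, the 4 largest increases and decreases among called genes of the PRC1 partner and H2AK119ub removal lists and the genes there that failed the filter, and the 3 genes most like *Pcgf1*. *Cbx8*, *Bmi1*, *Usp7*, *Wdr5*, *Bcor*, *Asxl1*, *Asxl2*, *Phc3*, *Fbrs*, *L3mbtl2*, markers and overlapping genes were named after their values were seen. Exon lengths and overlaps came from GENCODE vM21 and promoters from RefSeq (GRCm38.p6). Figures were drawn with matplotlib 3.10.9. ChIP-seq, iCLIP, TSA-seq and imaging data were not analysed here.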

Additional observations from a re-analysis of the deposited data

Results flagged for a closer look

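A library far from the other 3 of its group, by Dixon's test at the 95% level, was looked for in 90 groups of 4 libraries (45 genes). There were 3 such values, and chance gives about 1 in 20 groups. *Kdm2b* in WT replicate 4 was at 0.0719 RPKM, below the other WT libraries at 0.0839 to 0.0856. *Scmh1* in ΔTAM replicate 4 was at 0.0280 RPKM, above the others at 0.0234 to 0.0239. *Yaf2* in WT replicate 2 was at 0.0291 RPKM, above the others at 0.0226 to 0.0233.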

How the results depend on the processing

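*Pcgf1* and *Kdm2b* kept their direction and call under every setting in which they were tested. *Pcgf3* (log2 fold change 0.11) was no longer called with quantile normalization (0.088), without a variance trend (0.11) or with the replicate block (0.11, adjusted p = 0.100), nor in 7 of 8 fits without 1 library (0.093 to 0.12 over all 8). *Cbx7* was called with quantile normalization (-0.15) and voom (-0.13). Without 1 library, *Rnf2* ranged from -0.022 to 0.028 and *Ring1* from -0.19 to 0.047, and each turned sign. Same-numbered WT and ΔTAM libraries did not deviate together (correlations 0.00250 to 0.0460), so the numbers do not pair the samples, and with the replicate block *E2f6* was no longer called (adjusted p = 0.102), which left 1 other PRC1 gene called lower in place of 2.

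With a filter of 1 RPKM, 591 of 2151 genes tested were called higher (27.5%) and 401 lower (18.6%), with 1 of the 2 PRC1 subunit genes tested higher and, of the 5 other PRC1 genes tested, 3 higher and 1 lower. Quantile normalization and voom each called 1 of the 10 lower. Voom called 10 other PRC1 genes higher and 3 lower, and 2 H2AK119ub removal genes higher, beside 21.8% of all genes in each direction. Without 1 library, 2 to 3 of the 10 genes were called higher, and 5 to 6 other PRC1 genes higher and 1 to 2 lower. The filter of 0.1 RPKM gave no value for *Kdm2b* and *Pcgf5*, and that of 1 RPKM one for *Pcgf1* and *Pcgf2* alone. By the longest transcript (chosen after seeing the data) and by gene span, the share of *Rnf2* was 90.7% and 58.3% in WT and 91.2% and 59.9% in ΔTAM, that of *Pcgf2* 36.4% and 36.7% in WT and 34.7% and 33.9% in ΔTAM, and that of *Pcgf1* 22.0% and 32.0% in WT and 27.1% and 38.2% in ΔTAM. The share of *Pcgf6* by these lengths was 27.0% and 16.05% in WT and 24.6% and 14.15% in ΔTAM. By the longest transcript it was above that of *Pcgf1* in WT. The cause of these shifts in calls was not tested. *Ring1* and *Pcgf5* had under 100 reads per library, and the SE of *Ring1* was 0.16 with all libraries and 0.11 without ΔTAM replicate 1.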
